A study of Mus musculus with 6 samples.

Results

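The genes described here are contractile and stromal fibroblast markers, 10 genes chosen by name as a readout of feeder-like or mesenchymal signal in cultures of pluripotent mouse cells. The genes were chosen with earlier results of these data known, so their counts beside shares over all genes are descriptive. A probe was found for 9 of them, out of 16155 named genes tested on the array, and Myl9 had no named probe. Contractile genes are Acta2, Tagln and Cnn1 (and Myl9), matrix and matricellular genes are Fn1, Postn, Ctgf and Timp3, and the remaining pair, S100a4 and Thy1, are used as fibroblast-associated markers. They were measured by 15 probes, and all 15 were well above background on each of the 6 arrays.

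Total RNA from 6 samples of strain 129 cells was measured on Agilent arrays in a single colour (Cy3), 1 array per sample. The groups were E3.5 EpiSC + SB431542, E3.5 EpiSC, E5.5 EpiSC + SB431542, E5.5 EpiSC, mES + SB431542 and mES. EpiSCs, or epiblast stem cells, are pluripotent cells in the primed state, here 1 line labelled with embryonic day 3.5 and 1 with embryonic day 5.5, and mES cells are mouse embryonic stem cells, labelled with embryonic day 3.5. Treated cultures were given SB431542, an inhibitor of the type I receptor kinases for TGF-beta, Activin and Nodal, at 20 µM on each of 4 days, and no vehicle is named for the untreated ones. All 6 samples were grown in Knockout DMEM with 20% KSR, a serum replacement, and the labels name no feeder layer.

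Smooth muscle actin, transgelin and calponin bind to or form the actin filaments of contractile cells, and their genes are classical targets of the serum response factor SRF and its coactivators of the myocardin family. TGF-beta signalling through SMAD proteins also raises many of these genes when fibroblasts become myofibroblasts, together with matrix genes such as Fn1, Postn and Ctgf. Mouse embryonic fibroblasts, a common feeder layer for pluripotent cells, carry many of the same transcripts, so the genes do not by themselves tell one mesenchymal source from another.

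Each group has 1 array, so values of single arrays carry no error of their own. On each array 43379 gene spots were read, 0 were saturated and between 82.6% and 85.7% were well above background. Levels are log2 signal relative to the 75th percentile of the same array, so 0 is the level of that percentile, and differences are log2 ratios. The precision of the estimates below is set by how few arrays there are. Slide 1 held both E5.5 EpiSC arrays and both mES arrays, slide 2 the E3.5 EpiSC array and slide 3 the E3.5 EpiSC + SB431542 array, so in the E3.5 line the effect of SB431542 and the slide cannot be told apart. Comparisons among E5.5 EpiSC and mES arrays lie within slide 1. The labels of the treated EpiSC arrays were checked by Pou5f1, the gene of the pluripotency factor Oct4, which stood at -5.39 and -4.38 on the E3.5 and E5.5 EpiSC + SB431542 arrays, and between 5.35 and 5.88 on the other 4. Hes5, a neural progenitor gene, stood at 6.08 and 4.92 on the same treated EpiSC arrays, and between -1.66 and -1.06 on the other 4. These genes cannot check which EpiSC line an array holds, nor tell the other 4 arrays from one another.

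Tagln encodes transgelin, an actin-binding protein of smooth muscle cells and fibroblasts. Its brighter probe stood at 2.07 on the E3.5 EpiSC + SB431542 array and 4.59 on the E3.5 EpiSC array, at 5.45 on the E5.5 EpiSC + SB431542 array and 3.89 on the E5.5 EpiSC array, and at -0.05 and 0.04 on the mES + SB431542 and mES arrays. All 4 EpiSC arrays lay above both mES arrays, and within the EpiSC lines the treated array was the lower one in the E3.5 line and the higher one in the E5.5 line. The untreated level was 23.3-fold that of mES cells in the E3.5 line and 14.4-fold in the E5.5 line, pairs of ratios that share the mES array. The SB431542 ratio was -2.52 in the E3.5 line, a 5.72-fold lower signal, and 1.57 in the E5.5 line, a 2.96-fold higher one. A dimmer Tagln probe ran the same way, with SB431542 ratios of -3.18 and 1.68 in the E3.5 and E5.5 lines.

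Cnn1 encodes calponin 1, which binds actin and restrains myosin activity in smooth muscle. It stood at -1.98 on the E3.5 EpiSC + SB431542 array and 2.64 on the E3.5 EpiSC array. In the E5.5 line it stood at 2.40 with SB431542 and 2.48 without it, and in mES cells at -1.63 and -1.05. The E3.5 EpiSC + SB431542 array therefore lay below both mES arrays, while the other 3 EpiSC arrays lay together near the top. The SB431542 ratio was -4.61 in the E3.5 line (24.5-fold lower), the widest SB431542 ratio of the 9 genes, against -0.08 in the E5.5 line and -0.59 in mES cells.

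Acta2 encodes smooth muscle alpha-actin, the filament protein that defines myofibroblasts, and its 3 probes differed. The brightest probe varied little, at 4.48 with SB431542 and 5.29 without it in the E3.5 line, 5.40 and 5.31 in the E5.5 line and 4.97 and 4.81 in mES cells. The middle probe stood at 0.18 on the E3.5 EpiSC + SB431542 array and 1.98 on the E3.5 EpiSC array, at 4.00 and 1.34 on the E5.5 EpiSC + SB431542 and E5.5 EpiSC arrays, and at -1.63 and -1.81 on the mES + SB431542 and mES arrays. The dimmest probe stood at -3.74 and -3.07 in the E3.5 line, -0.68 and -2.93 in the E5.5 line and -5.86 and -4.83 in mES cells, with and without SB431542 in each. Both dimmer probes were highest on the E5.5 EpiSC + SB431542 array and had all 4 EpiSC arrays above both mES arrays, as Tagln did. Their SB431542 ratios in the E5.5 line were 2.66 and 2.25, against 0.09 for the brightest probe, and the probes' ratios lay up to 5.20 apart and had opposite signs in 3 of the 9 pairs of arrays compared. Actins are a family of nearly identical genes, so a probe may share signal with another actin, which was not tested here. Actg2, the enteric smooth muscle actin, varied little as well (3.35 with SB431542 and 3.78 without it in the E3.5 line, 4.12 and 3.87 in the E5.5 line, 3.90 and 3.60 in mES cells). Acta1, the skeletal muscle actin, stood at -2.81 with SB431542 and 0.58 without it in the E3.5 line, -0.01 and -0.29 in the E5.5 line and -3.92 and -4.36 in mES cells.

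**Figure D1:**
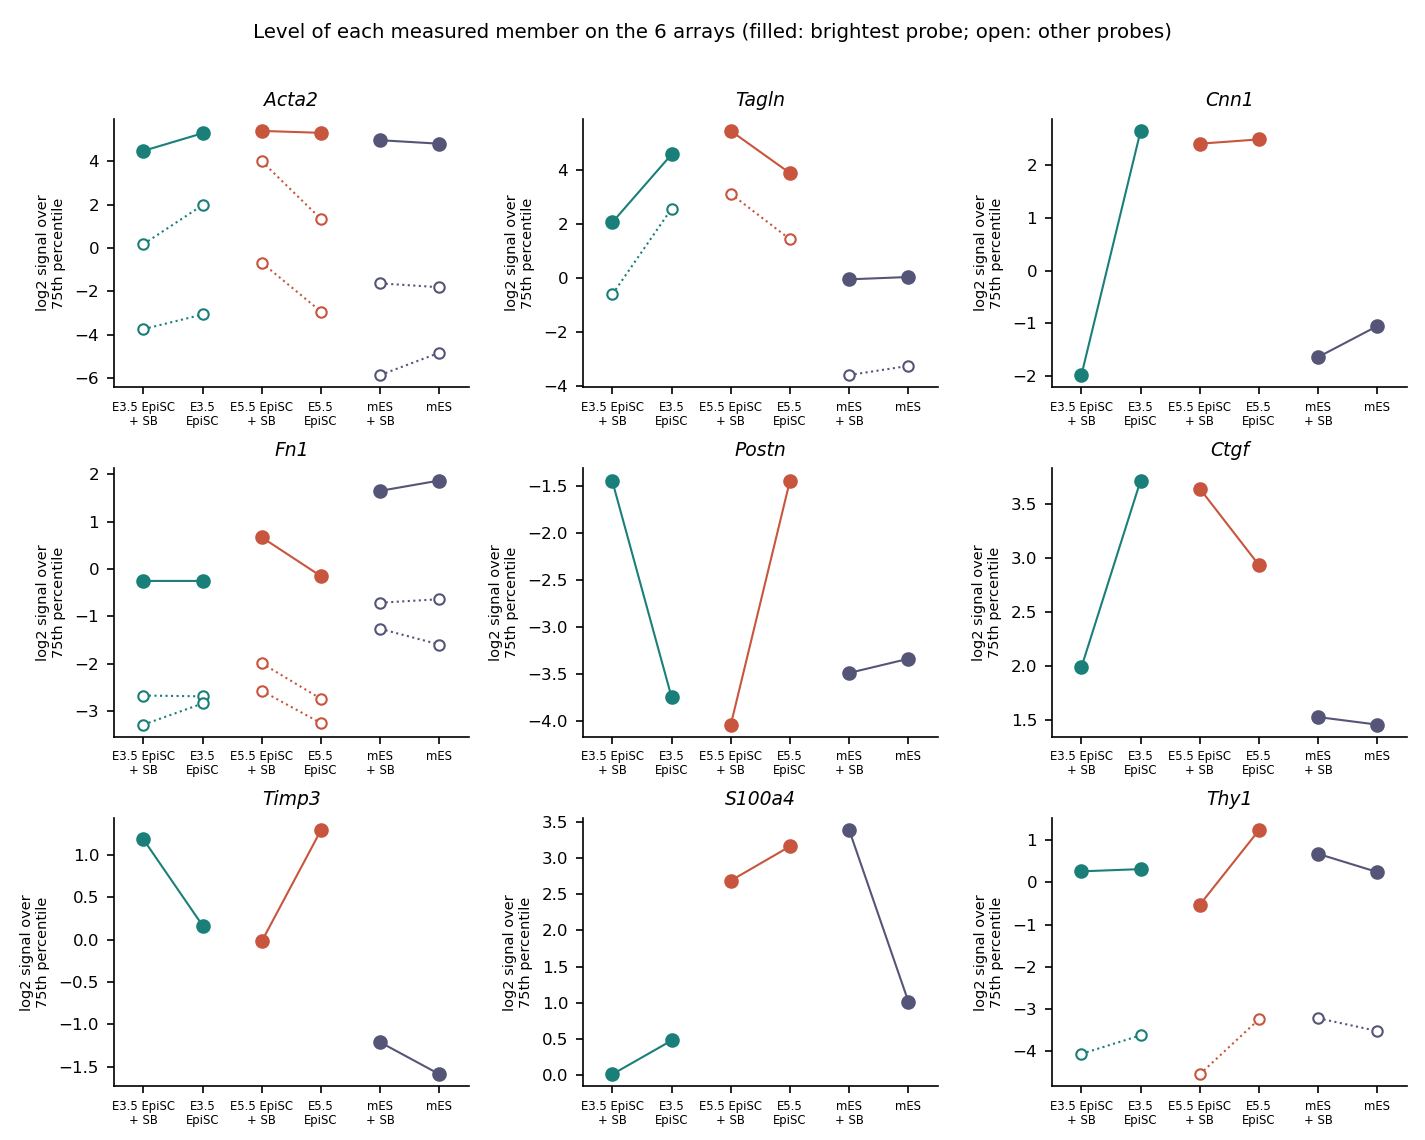
Log2 signal over the array's 75th percentile (vertical axis) on the 6 arrays (horizontal axis, SB for SB431542), 1 panel per gene. Filled points are the brightest probe and open points the other probes, and lines join the treated and untreated array of a line. Tagln, Cnn1 and Ctgf are lower with SB431542 in the E3.5 line and Postn and Timp3 are higher there, while Tagln, Ctgf, Postn and Timp3 go the other way in the E5.5 line.

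The bases ahead of the start sites of Acta2, Cnn1 and Timp3 are shown because SRF binds CArG boxes in promoters of contractile genes and these members had different ratios under SB431542. The sequences are from RefSeq, build GRCm38.p6, 250 bases before the start and 5′ to 3′ on the gene's strand, and an entry was found for 6 of the 10 genes; Tagln, Thy1, Fn1 and Ctgf had none. Capitals mark a CArG box with 1 C or G among its central bases, matched on both strands, or GGAATG, the core of TEAD sites, searched on both strands. The Acta2 promoter is chr19:34255374-34255623 on the minus strand, the Cnn1 promoter is chr9:22099003-22099252 on the plus strand and the Timp3 promoter is chr10:86300162-86300411 on the plus strand.
Acta2: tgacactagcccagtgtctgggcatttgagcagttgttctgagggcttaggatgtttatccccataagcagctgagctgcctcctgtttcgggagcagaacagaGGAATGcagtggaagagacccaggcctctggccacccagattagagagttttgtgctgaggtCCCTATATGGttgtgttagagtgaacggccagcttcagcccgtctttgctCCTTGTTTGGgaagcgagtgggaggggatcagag
Cnn1: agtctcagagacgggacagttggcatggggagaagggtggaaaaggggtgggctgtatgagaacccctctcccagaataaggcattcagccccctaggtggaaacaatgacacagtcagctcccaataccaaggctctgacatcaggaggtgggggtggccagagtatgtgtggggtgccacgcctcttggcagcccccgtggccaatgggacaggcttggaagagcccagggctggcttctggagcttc
Timp3: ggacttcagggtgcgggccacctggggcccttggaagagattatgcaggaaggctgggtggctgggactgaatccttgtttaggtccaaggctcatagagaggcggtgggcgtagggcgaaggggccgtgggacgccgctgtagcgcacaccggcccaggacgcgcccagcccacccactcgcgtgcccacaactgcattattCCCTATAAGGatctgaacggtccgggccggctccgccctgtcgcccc

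The Acta2 window holds 2 such CArG boxes, CCCTATATGG from base -84 to -75 and CCTTGTTTGG from base -34 to -25 relative to the start, and 1 GGAATG from base -146 to -141. Timp3 holds CCCTATAAGG from base -47 to -38, and Cnn1 holds neither motif in this window. A CArG box with no C or G among its central bases was found in 1.47% of 32851 promoters of the same length, one with 1 C or G in 7.24% and GGAATG in 12.6%. Of the other 3 genes with an entry, Myl9, which was not measured, holds CCTAATAAGG from base -161 to -152 and CCTTGTAAGG from base -99 to -90. The former is the 1 CArG box with no C or G among its central bases in the windows of the 6 genes. Postn has 2 windows, and neither these nor that of S100a4 held any of the motifs. A match describes the letters and not a bound site.

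Ctgf encodes connective tissue growth factor, a secreted matricellular protein and a standard target of TGF-beta and of the YAP and TEAD factors. It stood at 1.99 on the E3.5 EpiSC + SB431542 array and 3.72 on the E3.5 EpiSC array, at 3.64 and 2.93 on the E5.5 EpiSC + SB431542 and E5.5 EpiSC arrays, and at 1.53 and 1.46 on the mES + SB431542 and mES arrays. All 4 EpiSC arrays lay above both mES arrays, and the E3.5 EpiSC + SB431542 array was the lowest of the 4, as it was for Tagln. The SB431542 ratio was -1.73 in the E3.5 line (3.31-fold lower), 0.71 in the E5.5 line and 0.07 in mES cells.

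Postn encodes periostin, a matrix protein of fibroblasts and injured tissue that binds collagen. It stood at -1.46 on the E3.5 EpiSC + SB431542 array and -3.75 on the E3.5 EpiSC array, at -4.04 on the E5.5 EpiSC + SB431542 array and -1.45 on the E5.5 EpiSC array, and at -3.49 and -3.34 on the mES + SB431542 and mES arrays. The 2 high arrays were thus the treated E3.5 line and the untreated E5.5 line, and the other 4 arrays lay close together. The SB431542 ratio was 2.29 in the E3.5 line (4.91-fold higher) and -2.60 in the E5.5 line (6.05-fold lower). It was -0.15 in mES cells.

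Timp3 encodes a matrix-bound inhibitor of metalloproteinases. It stood at 1.18 on the E3.5 EpiSC + SB431542 array and 0.17 on the E3.5 EpiSC array, at -0.02 and 1.29 on the E5.5 EpiSC + SB431542 and E5.5 EpiSC arrays, and at -1.21 and -1.59 on the mES + SB431542 and mES arrays. All 4 EpiSC arrays lay above both mES arrays, and the same 2 arrays as for Postn were the highest. The SB431542 ratio was 1.02 in the E3.5 line, -1.31 in the E5.5 line and 0.38 in mES cells.

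Fn1 encodes fibronectin, the main adhesive glycoprotein of the early embryonic matrix, and its brightest probe stood at -0.25 on both E3.5 EpiSC arrays, at 0.67 on the E5.5 EpiSC + SB431542 array and -0.15 on the E5.5 EpiSC array, and at 1.65 and 1.87 on the mES + SB431542 and mES arrays. It was the 1 member of the 9 with all 4 EpiSC arrays below both mES arrays. The untreated level was 4.36-fold lower than in mES cells in the E3.5 line and 4.07-fold lower in the E5.5 line. The other 2 probes also had their 4 EpiSC levels below both mES levels, with untreated ratios to mES cells of -2.05 and -1.25 in the E3.5 line and -2.11 and -1.66 in the E5.5 line.

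S100a4 encodes a calcium-binding protein also called fibroblast-specific protein, although other cells make it too. It stood at 0.01 and 0.48 on the E3.5 EpiSC + SB431542 and E3.5 EpiSC arrays, at 2.69 and 3.16 on the E5.5 EpiSC + SB431542 and E5.5 EpiSC arrays, and at 3.38 on the mES + SB431542 array and 1.02 on the mES array. The E3.5 line was low and the E5.5 line high with and without SB431542, and treated mES cells were the highest of all. The SB431542 ratio was 2.37 in mES cells (5.16-fold higher), against -0.47 in either EpiSC line.

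Thy1 encodes a surface glycoprotein of fibroblasts, neurons and some stem cells. Its brighter probe stood at 0.26 and 0.32 on the E3.5 EpiSC + SB431542 and E3.5 EpiSC arrays, at -0.53 on the E5.5 EpiSC + SB431542 array and 1.24 on the E5.5 EpiSC array, and at 0.68 and 0.25 on the mES + SB431542 and mES arrays. The treated and the untreated E5.5 arrays were the lowest and the highest, and the other 4 lay between them. The SB431542 ratio in the E5.5 line was -1.77, and a dimmer probe gave -1.31.

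The first comparison asked whether the markers differed in level between untreated EpiSCs and untreated mES cells. By limma with Benjamini-Hochberg adjustment, 0 of the 9 genes passed at 0.05, where 1.5% of all 16155 genes passed (0.39% higher and 1.11% lower), and 3 (Fn1, Timp3 and Tagln) had an unadjusted p under 0.05, where 16.4% of all genes did. Fn1 differed by -2.07 ± 0.48 (SE, n = 2 EpiSC arrays and 1 mES array, limma adjusted p = 0.139), Timp3 by 2.32 ± 0.73 (limma adjusted p = 0.229) and Tagln by 4.20 ± 1.42 (limma adjusted p = 0.254). Cnn1 had an estimate of 3.61 with a 95% interval from -1.06 to 8.27, and Ctgf one of 1.87 with an interval from -0.22 to 3.95, with ratios to mES cells of 3.69 and 3.53 in the E3.5 and E5.5 lines for Cnn1 and of 2.26 and 1.47 for Ctgf. The spread in this fit also holds the treated lines, which lay 4.37 apart for Cnn1. Without either treated EpiSC array 0 genes passed in all, in place of 242. For the mES group, with its lone array, the fit borrows the spread of the EpiSC lines. The labels name no separate cultures behind the arrays, and the p-values therefore describe scatter among these 6 arrays alone, part or all of which may be technical. In this fit that scatter is the difference between the EpiSC lines within a treatment, and the lines lie on different slides.

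By the 2-fold rule on single pairs of arrays, which has no test, 4 of 9 genes were higher and 1 lower in the E3.5 line than in mES cells, where 10.8% of all genes were higher and 12.4% lower. In the E5.5 line 6 were higher and 1 lower, where the shares over all genes were 11.7% and 10.6%. The median ratio over the 9 genes was 0.48 in the E3.5 line and 1.90 in the E5.5 line, beside -0.03 and -0.10 over all genes. Postn and S100a4 made the difference in count, with ratios to mES cells of -0.41 and -0.54 in the E3.5 line and 1.90 and 2.14 in the E5.5 line. The E5.5 values lie within slide 1. Over all 6 arrays, Tagln, Ctgf and Timp3 were above both mES arrays on all 4 EpiSC arrays, as 19.0% of all genes were, and Fn1 was below, as 31.3% were.

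**Figure D2:**
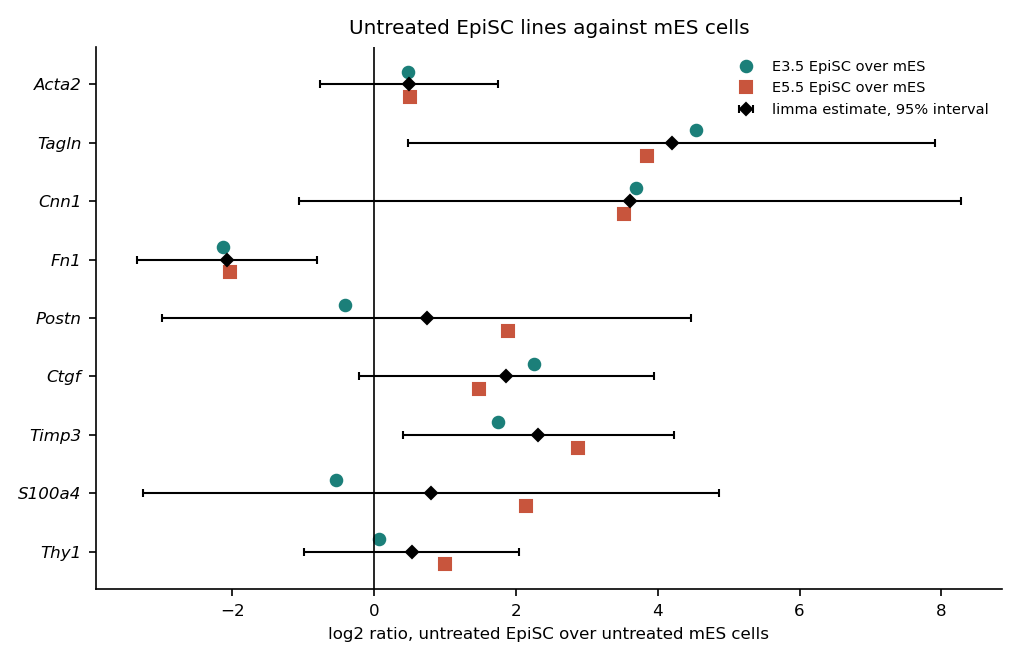
Log2 ratio of untreated EpiSCs over untreated mES cells (horizontal axis) for the 9 genes. Circles are the E3.5 line, squares the E5.5 line (1 array each, both over the same mES array), and diamonds with bars the limma estimate with its 95% interval. Tagln and Cnn1 lie above 3 and Fn1 near -2 in both lines, while Postn and S100a4 lie on opposite sides of 0.

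The SB431542 effect was tested with the 2 treated against the 2 untreated EpiSC arrays, and 0 of the 9 genes passed, where 2.09% of all genes did (338, with 0.891% higher and 1.2% lower). None of the 9 had an unadjusted p under 0.05, where 19.8% of all genes did. With the line as a block, which pairs each treated array with its own line, 857 genes passed and again 0 of the 9, and without either treated EpiSC array 0 genes passed in all (206 without the E3.5 EpiSC array). Without the block, the estimates averaged over lines were Cnn1 -2.35 ± 1.45 (SE, n = 2 and 2, limma adjusted p = 0.418), Thy1 -0.91 ± 0.47 (limma adjusted p = 0.348), Tagln -0.47 ± 1.16 (limma adjusted p = 0.832) and Postn -0.15 ± 1.16 (limma adjusted p = 0.950). These averages stand for neither line in Tagln and Postn, whose lines had ratios of opposite sign. The difference of the SB431542 effect between the lines has no residual degrees of freedom and was not tested. Across all 3 lines 0 of the 9 genes passed, as did 0.0% of all genes (8.65% had an unadjusted p under 0.05, none of the 9 among them), and the members' limma adjusted p-values ran from 0.508 to 0.979.

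Line by line, 2 of 9 genes were at least 2-fold higher with SB431542 in the E3.5 line (Postn and Timp3) and 3 at least 2-fold lower (Tagln, Cnn1 and Ctgf), where 11.4% of all genes were higher and 19.7% lower. In the E5.5 line 1 was higher (Tagln) and 3 were lower (Postn, Timp3 and Thy1), where the shares were 6.48% and 8.75%. In mES cells S100a4 alone was higher and 0 were lower, where the shares were 1.41% and 1.13%. The median of all genes was itself shifted by -0.31 in the E3.5 line, against -0.05 in the E5.5 line and 0.02 in mES cells. Tagln, Postn and Timp3, 3 of the 9, had ratios past 2-fold in opposite directions in the EpiSC lines, as did 81 genes or 0.501% of all. Timp3 passed only narrowly in the E3.5 line, with a log2 ratio of 1.02 between arrays on separate slides.

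**Figure D3:**
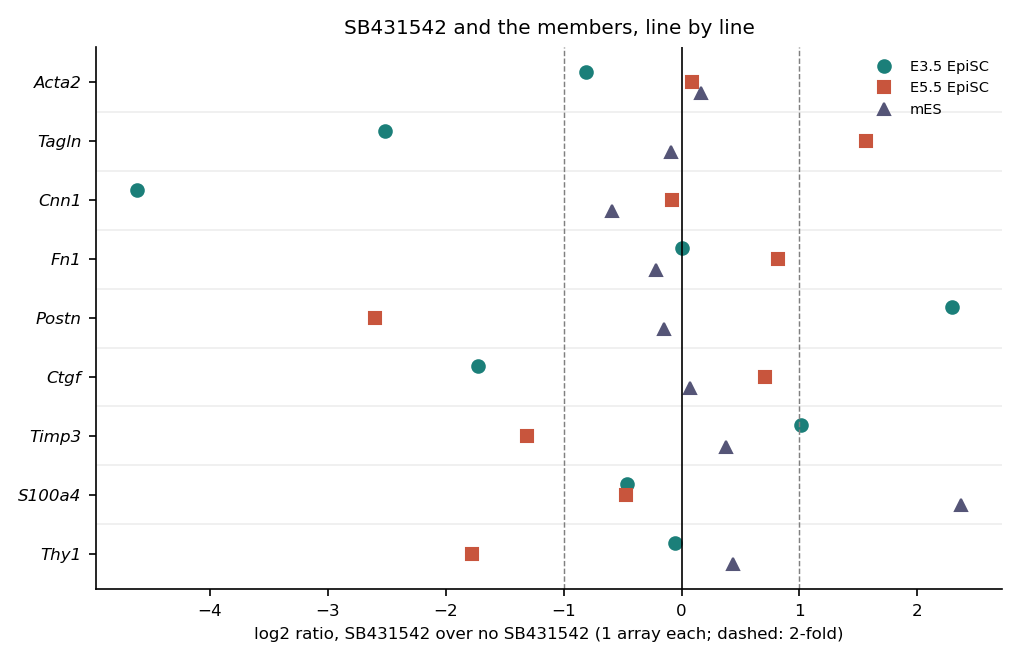
Log2 ratio of SB431542 over no SB431542 (horizontal axis) for the 9 genes in the E3.5 EpiSC line (circles), the E5.5 EpiSC line (squares) and mES cells (triangles), 1 array each. Dashed lines mark a 2-fold ratio. Tagln and Postn lie on opposite sides of 0 in the EpiSC lines, Cnn1 is far below 0 in the E3.5 line alone, and S100a4 is far above 0 in mES cells alone.

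The treated EpiSC arrays were also set against the treated mES array. Of the 9 genes 0 passed, where 10.7% of all genes did (1724, with 5.35% higher and 5.32% lower, and 0 without the E3.5 EpiSC + SB431542 array). An unadjusted p under 0.05 was found for 2 of the 9, where 28.7% of all genes had one: Fn1 at -1.44 ± 0.48 (SE, n = 2 and 1, limma adjusted p = 0.135) and Tagln at 3.81 ± 1.42 (limma adjusted p = 0.167). By the 2-fold rule 3 genes were higher and 2 lower in the treated E3.5 line than in treated mES cells, where 15.6% of all genes were higher and 28.2% lower. In the treated E5.5 line 4 were higher and 1 lower, where 13.8% and 16.2% of all genes were.

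Between the EpiSC lines, E5.5 over E3.5 and averaged over treatment, 0 of the 9 genes passed, as did 0.0% of all genes (7.82% had an unadjusted p under 0.05). S100a4 had the lowest p of the 9, at 2.68 ± 0.81 (SE, n = 2 and 2, unadjusted p = 0.026, limma adjusted p = 0.546). Its E5.5 over E3.5 ratios were 2.68 without SB431542 and 2.67 with it. Line and slide cannot be told apart in this comparison. Without SB431542, 3 of 9 genes were at least 2-fold higher in the E5.5 line (S100a4, Postn and Timp3) and 0 lower, where 5.94% of all genes were higher and 3.75% lower. With SB431542, 4 were higher (Cnn1, Tagln, S100a4 and Ctgf) and 2 lower (Postn and Timp3), where the shares were 10.6% and 5.91%. Cnn1 was 20.7-fold and Tagln 10.4-fold higher in the treated E5.5 than in the treated E3.5 line.

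In bulk samples such as these, fewer cells of a type and less RNA per cell cannot be told apart. The 24 contractile and SRF pathway genes on the array were read beside the contractile members. Zyx, which encodes the focal adhesion protein zyxin, was the 1 gene of the 24 that passed in untreated EpiSCs over mES cells, where it rose (3.30 ± 0.41, SE, n = 2 and 1, limma adjusted p = 0.0462), and 0 passed for SB431542 in EpiSCs. In treated EpiSCs over treated mES cells Mylk, the myosin light chain kinase gene, rose (3.57 ± 0.67, limma adjusted p = 0.0408) and Mkl2, which encodes a myocardin-related coactivator of SRF, fell (-2.01 ± 0.34, limma adjusted p = 0.0331). Of all genes 1.5%, 2.09% and 10.7% passed in these 3 comparisons, in the order given. None of the calls of Zyx, Mylk and Mkl2, nor those of the lists below in these comparisons, held without the E3.5 EpiSC + SB431542 array. A fit without that array also has fewer residual degrees of freedom. By the 2-fold rule 9 of the 24 were higher and 1 lower in the E3.5 line than in mES cells, and 10 higher and 1 lower in the E5.5 line, with medians of 0.63 and 0.69, where 10.8% of all genes were higher and 12.4% lower in the E3.5 line and 11.7% and 10.6% in the E5.5 line. Among them were Zyx (3.42 and 3.19), the caldesmon gene Cald1 (2.59 and 2.51) and the calponin gene Cnn2 (2.23 and 2.75).

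With SB431542, 9 of the 24 were at least 2-fold lower and 1 higher in the E3.5 line (median -0.74), against 3 lower and 1 higher in the E5.5 line (median -0.03, and 0.02 with quantile normalization). In mES cells 0 were past 2-fold (median 0.09). Over all genes 19.7% were lower and 11.4% higher in the E3.5 line (median -0.31), and 8.75% and 6.48% in the E5.5 line (median -0.05). Tagln2, a transgelin relative, had a ratio of -3.42 in the E3.5 line, and Des, the muscle filament gene desmin, -3.00 there and -1.23 in the E5.5 line. Mylk was the 1 gene past 2-fold upward in both lines, at 2.81 and 2.68. None of the 24 had ratios past 2-fold in opposite directions in the lines. Smooth muscle genes of the list differed in how far they spread over the 6 arrays. Myh11, the smooth muscle myosin, lay between -4.09 and -3.29 and Myocd, the gene of the SRF coactivator myocardin, between -5.04 and -3.91, whereas Des lay between -4.85 and -1.75, Mylk between -4.33 and 0.15, the tropomyosin gene Tpm2 between -0.44 and 2.06 and Cald1 between -2.61 and 0.20.

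The 32 measured stromal fibroblast genes, of 33 listed, were read beside Postn and Timp3. None passed in untreated EpiSCs over mES cells. For SB431542 in EpiSCs Nt5e, the gene of the surface enzyme CD73, fell (-5.59 ± 0.61, SE, n = 2 and 2, limma adjusted p = 0.035) and the other 31 did not pass. In treated EpiSCs over treated mES cells Fstl1, a secreted follistatin-like gene (2.31 ± 0.35, limma adjusted p = 0.0254), and Vim, the intermediate filament gene vimentin (2.43 ± 0.39, limma adjusted p = 0.0298), rose. In that comparison 10.7% of all genes passed. By the 2-fold rule 25 of the 32 were higher and 1 lower in the untreated E5.5 line than in mES cells (median 1.94), against 12 higher and 5 lower in the untreated E3.5 line (median 0.22). Over all genes 11.7% were higher and 10.6% lower in the E5.5 line, and 10.8% and 12.4% in the E3.5 line.

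The SB431542 ratios of the stromal genes are given line by line, and their difference between lines was not tested. In the E3.5 line 12 of 32 were at least 2-fold higher and 4 lower (median 0.68), in the E5.5 line 2 were higher and 9 lower (median -0.59), and in mES cells 10 were higher and 0 lower (median 0.52). The shares over all genes were 11.4% higher and 19.7% lower in the E3.5 line, 6.48% and 8.75% in the E5.5 line and 1.41% and 1.13% in mES cells. Col1a1, Col3a1, Lum and Ogn, 4 of the 32, were at least 2-fold higher in the E3.5 line and at least 2-fold lower in the E5.5 line, and 0 went the opposite way. Col1a1, the fibrillar collagen gene, stood at 3.14 and 1.15 in the E3.5 line, 1.96 and 3.71 in the E5.5 line and 1.03 and 1.10 in mES cells, with and without SB431542. Lum, the proteoglycan gene lumican, stood at 1.28 with SB431542 and -1.75 without it in the E3.5 line, 0.84 and 2.17 in the E5.5 line and 0.93 and -0.04 in mES cells. The E5.5 EpiSC array was its highest and the E3.5 EpiSC + SB431542 array the next, but both other treated arrays lay close below, where Postn was low. Dpt and Ogn, small matrix protein genes, were not well above background on the E3.5 EpiSC array, and were at least 29.7-fold and at least 18.2-fold higher with SB431542 in that line. Such a bound divides the brighter level by the dim array's lowest signal well above background, or by the dim signal itself where that is higher.

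**Figure D4:**
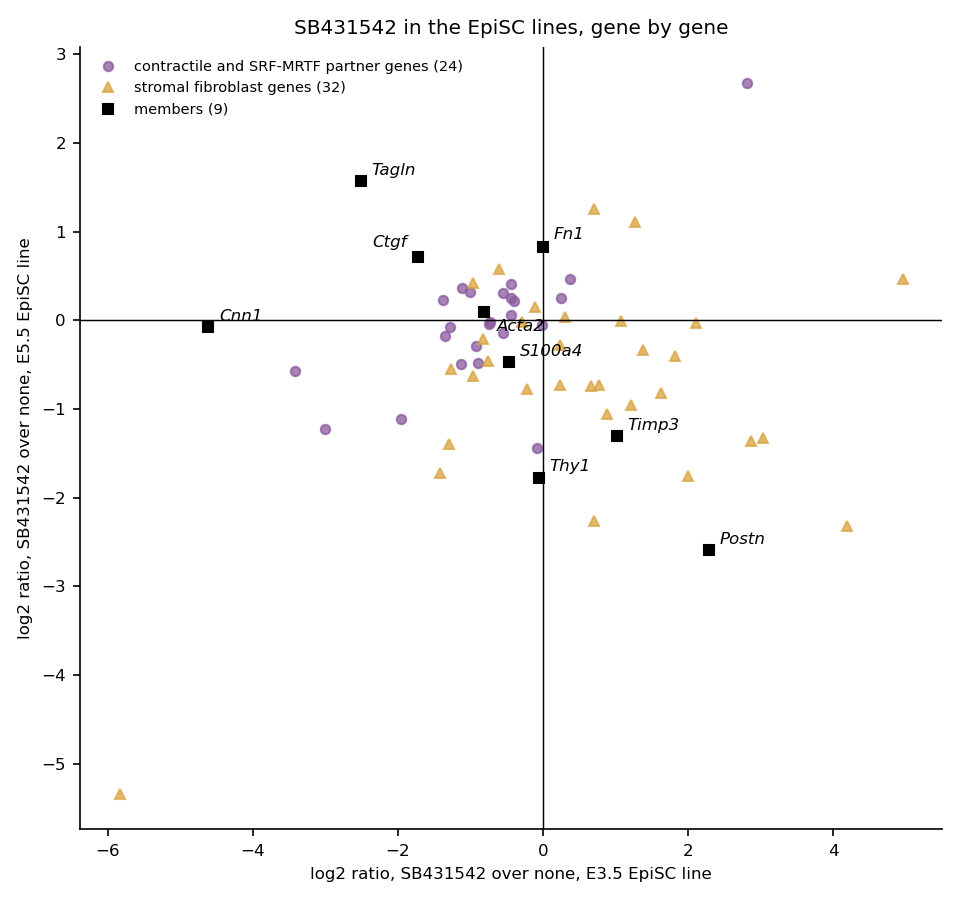
Log2 ratio of SB431542 over none in the E3.5 EpiSC line (horizontal axis) and in the E5.5 EpiSC line (vertical axis), 1 array per condition. Each point is a gene: squares are the 9 members, circles the 24 contractile and SRF pathway genes and triangles the 32 stromal fibroblast genes. Tagln and Ctgf lie at the upper left, with 3 of the 32 stromal genes. Postn and Timp3 lie at the lower right, with 16 of the 32. Of these 16, Col1a1, Col3a1, Lum and Ogn are past 2-fold in both lines.

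The summed signal of the 32 stromal genes, as a multiple of the 75th percentile, was 169 on the E3.5 EpiSC + SB431542 array and 118 on the E3.5 EpiSC array, 177 and 151 on the E5.5 EpiSC + SB431542 and E5.5 EpiSC arrays, and 68.0 and 51.9 on the mES + SB431542 and mES arrays. In each line the treated array had the higher sum, but in the E5.5 line this rests on Vim alone. Without Vim, left out after its values were seen, the sum was 84.2 with SB431542 and 112 without it in the E5.5 line, 73.0 and 58.4 in the E3.5 line and 50.4 and 32.0 in mES cells. Vim stood at 6.59 with SB431542 and 5.89 without it in the E3.5 line, 6.54 and 5.28 in the E5.5 line and 4.13 and 4.31 in mES cells. The sum of the contractile members (Acta2, Tagln and Cnn1) was 26.7 and 69.4 in the E3.5 line, 91.3 and 60.0 in the E5.5 line and 32.6 and 29.5 in mES cells, with and without SB431542. It takes Acta2 by its brightest probe, from which the other 2 Acta2 probes differed. That probe alone gave 31.3 and 28.0 in mES cells with and without SB431542, and 22.3 on the E3.5 EpiSC + SB431542 array. Fap, a defining gene of activated fibroblasts, was not well above background on the E3.5 EpiSC and mES arrays, and its highest level was -4.42. The part of any admixed fibroblasts in these values was not tested.

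The mES + SB431542 array held the highest level of S100a4, and some stromal genes were higher there too. Pdgfra, the receptor gene that marks embryonic mesenchyme, had an SB431542 ratio of 2.69 in mES cells, Dcn, the proteoglycan gene decorin, 1.97, and Twist2 1.79. Relatives of S100a4 differed by line: S100a6 had ratios of -3.01, -0.49 and 1.26 in the E3.5, E5.5 and mES lines, and S100a10 -4.31, -1.29 and -0.51. Of the 14 S100, TIMP and fibronectin-receptor genes 0 passed in any of the 5 tested comparisons, and by the 2-fold rule 6 were lower and 1 higher with SB431542 in the E3.5 line, 4 lower and 0 higher in the E5.5 line and 0 lower and 3 higher in mES cells. The shares over all genes were 19.7% lower and 11.4% higher in the E3.5 line, 8.75% and 6.48% in the E5.5 line and 1.13% and 1.41% in mES cells. Tnc, the matrix glycoprotein gene tenascin C, was among the lower ones in both EpiSC lines (-3.98 and -1.62).

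The TGF-beta and YAP-TEAD response genes, 23 measured of 25, bear on Ctgf. Tgfb2, a TGF-beta ligand gene, passed in untreated EpiSCs over mES cells and rose (3.82 ± 0.47, SE, n = 2 and 1, limma adjusted p = 0.0462), and for SB431542 in EpiSCs Igfbp3, a binding protein gene induced by TGF-beta, fell (-4.21 ± 0.28, SE, n = 2 and 2, limma adjusted p = 0.0227). In treated EpiSCs over treated mES cells 3 of the 23 rose: Nuak2 (3.63 ± 0.51, SE, n = 2 and 1, limma adjusted p = 0.0219), Tgfb2 (2.89 ± 0.47, limma adjusted p = 0.0308) and the receptor gene Tgfbr1 (2.55 ± 0.50, limma adjusted p = 0.046). In that comparison 10.7% of all genes passed. By the 2-fold rule 10 of the 23 were lower and 4 higher with SB431542 in the E3.5 line (median -0.65), and 8 lower and 7 higher in the E5.5 line (median -0.03). Over all genes 19.7% were lower and 11.4% higher in the E3.5 line, and 8.75% and 6.48% in the E5.5 line. Smad7, the feedback inhibitor of the pathway, had ratios of -1.76 in the E3.5 line, -2.17 in the E5.5 line and -3.83 in mES cells, so it was lower with the inhibitor in all 3. Cyr61, a close relative of Ctgf, had ratios of -1.17, 0.12 and 0.60 in the same lines, and Ankrd1, a YAP target, had -2.43, 1.67 and -0.33. Ctgf's signs in the EpiSC lines, below 0 in the E3.5 line and above 0 in the E5.5 line, were shared by 5 of the 23, Ankrd1 being the 1 gene past 2-fold in both. Another 6 were above 0 in both lines, 10 below 0 in both and 2 the opposite way to Ctgf. Among those above 0 in both were the YAP-TEAD targets Thbs1 (0.90 in the E3.5 line and 1.54 in the E5.5 line), Lats2 (0.89 and 1.53) and Axl (0.29 and 0.81). Tgfbi, a matrix gene induced by TGF-beta, had ratios of -0.93, 1.57 and 0.30, and Nuak2, a kinase gene, 2.06, 3.24 and -0.10.

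Markers of other cell types were read on the same arrays. Of 6 endothelial genes Flt1, Kdr and Pecam1 were well above background on all 6 arrays, Cdh5 on 5 and Tek and Tie1 on 3. Between untreated lines 4 of these 6 had an E5.5 over E3.5 ratio of at least 2-fold and 0 were lower by as much. Postn and Timp3 were higher in the E5.5 line as well, and 5.94% of all genes were. Flt1, a VEGF receptor gene, stood at 3.23 on the E5.5 EpiSC array and 0.55 on the E3.5 EpiSC array, against -2.73 on the mES array. By the 2-fold rule 3 of the 6 were higher in the untreated E5.5 line than in mES cells. Another 2 were lower there, Pecam1 (-3.27) and Tek (-3.65). In the untreated E3.5 line 1 was higher and 3 were lower. The shares over all genes were 11.7% higher and 10.6% lower in the E5.5 line, and 10.8% and 12.4% in the E3.5 line. The summed endothelial signal was 0.494 with SB431542 and 1.62 without it in the E3.5 line, 1.97 and 10.1 in the E5.5 line and 0.862 and 1.01 in mES cells. On the E5.5 EpiSC array Flt1 made up most of this sum. The median level of the 6 genes was -3.74 on that array and -3.18 on the mES array. Of 4 blood genes Cd34 and Hba-a1 were well above background on all 6 arrays, Spi1 on 2 and Ptprc on 1, and their summed signal lay between 0.301 and 1.65. The part of such cells in the members' values was not tested. Of 10 cardiac and skeletal muscle genes 1 was higher and 2 were lower by 2-fold with SB431542 in the E3.5 line, and 1 higher and 0 lower in the E5.5 line, with Myod1 between -2.11 and -1.57 and Nppa between -2.69 and -2.32 over the arrays. These counts lay near the shares over all genes, 11.4% higher and 19.7% lower in the E3.5 line and 6.48% and 8.75% in the E5.5 line. Timp1 and Itga5 stand on more than 1 of the lists above. Neural crest makes mesenchyme in the embryo, and of its genes Pax3 rose with SB431542 in EpiSCs, to 1.93 and 1.77 on the E3.5 and E5.5 EpiSC + SB431542 arrays, against -3.99 and -2.97 on the untreated ones, while the other 6 of the 7 did not pass. Among these Ngfr, the gene of a neurotrophin receptor, stood at 1.51 with SB431542 and -0.97 without it in the E3.5 line and at -0.52 and 0.48 in the E5.5 line, past 2-fold in opposite directions as Postn and Timp3 were. Foxd3 had SB431542 ratios of -1.88 in the E3.5 line and -2.97 in the E5.5 line. The summed neural crest signal was 7.52 with SB431542 and 2.11 without it in the E3.5 line, 5.51 and 4.07 in the E5.5 line and 1.77 and 1.70 in mES cells. The higher sums of the treated EpiSC arrays rest on Pax3, and in the E3.5 line also on Ngfr. With and without SB431542, the median level of the 7 was -2.33 and -1.52 in the E3.5 line, and -1.87 and -1.16 in the E5.5 line.

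The profiles most like those of the members, by the root mean square difference of log2 values over the 6 arrays with each gene centred on its mean, are given for the 7 members whose level spanned more than 2. Ctgf lay nearest to Gng12 (0.0852) and to the filamin gene Flnc (0.116), Tagln to Acta1 (0.549) and Cnn1 to the Activin-binding follistatin gene Fst (0.402). Timp3 lay nearest to Egflam (0.215) and Itpr2 (0.265), S100a4 to Casp4 (0.485) and Ccl2 (0.533), Fn1 to Fabp9 (0.121) and Postn to Htr7 (0.238). Fabp9 and Htr7 were well above background on 3 arrays each. A span of more than 2 was found in 28.1% of all genes. Among the 36 pairs of members Acta2 (by its brightest probe) and Thy1 were closest, 0.633 apart, and Tagln and Fn1 farthest, 2.84 apart. Acta2 and Ctgf were 0.710 apart, Postn and Timp3 0.825, Ctgf and Timp3 1.03, Tagln and Cnn1 1.04, Tagln and Ctgf 1.25 and Tagln and Postn 2.47.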

How the data were processed

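Each deposited scanner file gives a linear spot intensity that Agilent's software had corrected for background and for trends across the array. The file headers name Feature Extraction 10.7.1.1 for this step, whereas 9.1 stands in the submitters' processing notes. A deposited value table held the same intensity at 45018 of 45018 spots. Deposited yes-or-no flags mark spots well above background, saturated or outlying.

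Control and outlier spots were left out, spots of a probe were averaged, and the background-corrected intensity was put on a log2 scale after division by its 75th percentile on that array. The files carry no gene names, so probes were named through their accessions (versions dropped) in a RefSeq table of GRCm38.p6, which gave 24375 of 41174 a gene. Ctgf stands there under a newer symbol. The probe with the highest mean signal stands for a gene. Tests covered the 16155 of 17016 named genes that any array showed well above background; on all 6 arrays 14482 were.

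Tests used limma 3.58.1 in R 4.3.3, with 2 residual degrees of freedom and Benjamini-Hochberg adjustment over all tested genes. The fit was run on simulated data with independent noise on each array, without slide effects or pairing by line, so that run cannot check either. The EpiSC lines served as replicates of their class. The treated and untreated arrays of a line are paired by the line, so the blocked count is given where it differs. The 2-fold rule needs the brighter array well above background. The members, the other gene lists and the tests were chosen with earlier results of these data known. Genes named besides the members passed a test, had the widest ratios of their list in a pair of arrays, mark a cell type or lay nearest in profile. Others named for a role were chosen after their values were seen. Alternatives were normexp background correction on the spot and background medians (no mean signal is in the files), quantile and median scaling, other filters, the mean over probes, single probes and leaving out each array.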

Additional observations from a re-analysis of the deposited data

Results flagged for a closer look

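In these genes the SB431542 ratio had opposite signs in the E5.5 and E3.5 EpiSC lines, 1 pair of arrays each. The ratio in the E5.5 line minus that in the E3.5 line was 4.08 for Tagln, 2.43 for Ctgf and 0.90 for Acta2, whose brightest probe had ratios of 0.09 in the E5.5 line and -0.81 in the E3.5 line. The other 2 Acta2 probes gave wider differences between the lines, 4.46 and 2.93. The same difference was -4.89 for Postn and -2.33 for Timp3. None of these differences was tested, and the E3.5 arrays lie on separate slides. In the genes S100a4 and Thy1 both EpiSC lines had a ratio below 0 and mES cells one above it. The mean of the EpiSC ratios minus the mES ratio was -2.84 for S100a4 and -1.35 for Thy1, also not tested. The groups hold 1 array each, so no search for outlying samples was possible.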

How the results depend on the processing

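In the 5 tested comparisons and all settings run, 0 of 585 member values passed the adjusted threshold. The lowest limma adjusted p was 0.0528, for Cnn1 in treated EpiSCs over treated mES cells without the E3.5 EpiSC + SB431542 array. Single probes, an alternative chosen after seeing the data, gave 0 calls among 15 member probes of 37258 tested. Over all genes, leaving out 1 array at a time gave 0 to 242 calls for EpiSCs over mES cells, 0 to 338 for SB431542 in EpiSCs, 0 to 1724 for treated EpiSCs over treated mES cells, 0 to 6 between the lines and 0 to 857 for SB431542 across the lines. For SB431542 in EpiSCs the count was 540 with genes above background on all 6 arrays and 857 with the line as a replicate block, and the block changed no member's call. For EpiSCs over mES cells 63 genes were higher and 179 lower (26.0% higher), but 79 and 120 with normexp, where the median of all genes was 0.14 in place of -0.06, and 124 and 148 with genes above background on all 6 arrays.

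The averaged SB431542 estimate in EpiSCs turned its sign for 7 of the 9 members in at least 1 setting. For Acta2 it was -0.36, but 0.29 as a mean over probes and 0.43 and 0.79 with the dimmer probes, and for Timp3 0.0051 with normexp. Leaving out 1 array at a time it ran from -0.82 to 0.10 for Acta2, -2.17 to 1.22 for Tagln, -0.050 to 0.87 for Fn1, -1.44 to 1.14 for Postn, -1.34 to 0.32 for Ctgf, -0.75 to 0.45 for Timp3 and -1.81 to 0.87 for S100a4. For EpiSCs over mES cells it ran from -0.41 to 1.90 for Postn and -0.54 to 2.14 for S100a4. The treated minus untreated sum of the stromal genes was 26.3 in the E5.5 line and -27.9 without Vim, an alternative also chosen after seeing the data. The causes were not tested. The opposite ratios of the lines given above do not cover S100a4, whose SB431542 ratio was -0.47 in either EpiSC line. Its level was higher in the E5.5 line by 2.68 without SB431542 and 2.67 with it. This fit does not pair arrays by line, so leaving out 1 EpiSC array weights the lines unequally. The slide as a random block could not be fitted, since no finite correlation was estimated. All member probes were well above background on every array, but dim values can still be noisier. The dimmest Acta2 probe stood at -5.86 on the mES + SB431542 array, where the lowest signal well above background was -6.48.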
